A study of Macaca fascicularis with 3 samples.

Results

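Nuclei of extraocular muscle (EOM) dominated by MYH13, the myosin heavy chain gene of the fastest eye muscle fibres, were chosen by their raw counts. A nucleus was a member if it held at least 30 UMIs of MYH13 (unique molecular identifiers, the tags by which captured RNA molecules are counted), at most 3 UMIs of MYH7, and at least 4 times as many MYH13 as MYH15 UMIs. Of the 16491 barcodes in the EOM nuclei library, 3353 (20.3%) met this rule, of 37973 barcodes in the whole series. They are set first against the 3896 other EOM nuclei that held at least 30 UMIs over the rows named MYH3, MYH4, MYH6, MYH7, MYH13 and MYH15, called the other myosin-rich nuclei below. They are then set against 3674 fast nuclei of a thigh muscle, the quadriceps femoris (QFM), which held at least 30 UMIs over the same 6 chains and at most 3 of MYH7.

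The study profiled muscle of the cynomolgus macaque (Macaca fascicularis) in 3 libraries: EOM nuclei, QFM nuclei and EOM whole cells. The labels name the tissue and the assay and give no treatment, age, sex or number of animals. The QFM library is titled as nuclei, while its deposited tables are named as single cells; its median mitochondrial share was 0.194%, against 0.461% in the EOM nuclei and 13.1% in the EOM cells. Each group comes from 1 library, so differences could not be set against a spread between replicates and none was tested; muscle cannot be told apart from library.

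Muscle fibres are syncytia, and each of their nuclei reports the genes of its own stretch of the fibre. The myosin heavy chain a fibre makes sets how fast it shortens; MYH13 is known mainly from eye and laryngeal muscle, MYH15 is an ancient slow-tonic type chain found in eye muscle, and MYH7 is the slow chain of limb muscle and heart. Fast fibres also rely on ATP2A1, the fast calcium pump that returns calcium to the sarcoplasmic reticulum, and on PVALB (parvalbumin), a cytosolic calcium buffer.

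The EOM nuclei library held 61618999 UMIs, the QFM nuclei library 72590186 and the EOM cell library 12248405, with medians of 2867, 4856 and 1141 UMIs per barcode. Members held a median of 4844 UMIs (1212 to 47253), against 4367 (766 to 113512) in the other myosin-rich nuclei and 5432 (1285 to 24915) in the fast QFM nuclei. Their median mitochondrial shares were 0.324%, 0.356% and 0.132%. No QFM barcode and no EOM cell met the rule: MYH13 reached at most 17 UMIs in a QFM barcode and 4 in an EOM cell. EOM and QFM nuclei shared 51 barcode sequences, 11 of them among the members, and neither library shared any with the cells. Levels are given in CPM, the counts of a gene summed over a group and scaled by all UMIs of that group, all intervals are 95% intervals, and they cover counting error only. Genes compared are those with 20 counts or more in both groups together (measured genes), and a gene was called where the ratio was at least 2-fold. Free RNA was gauged in 1625 endothelial-marker EOM nuclei, which held under 30 chain UMIs and at least 5 UMIs of endothelial markers.

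The values that chose the members are given as a description. MYH13 had a median of 77 UMIs per member (30 to 501), against 21 in the other myosin-rich nuclei. MYH15 had a median of 2 UMIs (0 to 96) in members, against 27 in the others. MYH13 made up 61.4% of the UMIs of the 6 chains in members and 35.2% in the others, and MYH15 made up 2.02% and 34.5%. These shares are not corrected for transcript length, and the chains are close copies, so reads may be split between rows. MYH1, MYH2 and MYH8, other chains known in fast and developing muscle, have no row under these symbols in the nuclei tables and are not analysed here. In the plot of MYH13 against MYH15 UMIs the members fill the lower right corner, and the nuclei just outside each limit continue the same cloud.

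**Figure D1:**
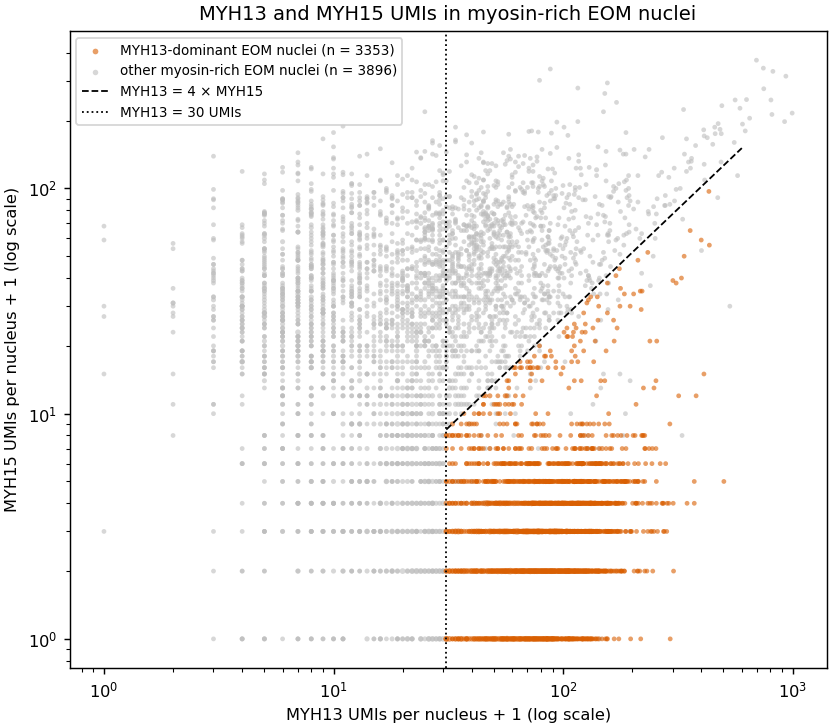
UMIs of MYH13 (x axis) and of MYH15 (y axis), each plus 1 on a log scale, for single myosin-rich EOM nuclei; colour separates members from the other nuclei and the lines mark the limits of the rule. Members start at 30 MYH13 UMIs and lie under the line of 4 times as many MYH13 as MYH15 UMIs.

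Nuclei just inside and just outside each limit were set side by side. Members with 30 to 34 MYH13 UMIs (158 nuclei) had 192 CPM of PVALB and 728 CPM of ATP2A1, and 162 nuclei with 25 to 29 that met the other conditions had 167 and 560.4 CPM. Members with 4 to 5 times as many MYH13 as MYH15 UMIs (72 nuclei) had 178 CPM of PVALB and 619 CPM of ATP2A1, and 115 nuclei with 3 to 4 times as many had 149.8 and 608 CPM. The 75 members with 3 UMIs of MYH7 had 206 CPM of PVALB and 742 CPM of ATP2A1, and the 16 nuclei with 4 had 202 and 579 CPM. TNNT2, the cardiac form of troponin T, had 139 CPM in these 75 members and 459.9 CPM in the 16 nuclei. Median MYH15 was 3 and 8 UMIs, so the 2 sets differ in more than MYH7. TNNT2 had 119 and 163 CPM inside and outside the MYH13 limit, and 234 and 277 CPM at the MYH15 limit.

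The chains the rule did not name also differed. The row named MYH3, known in other mammals as an embryonic chain, held 30.9% of the chain UMIs in members and 25.4% in the other myosin-rich nuclei, with a median of 40 (2 to 226) and 19 UMIs per nucleus. In fast QFM nuclei the same row held 98.8%. MYH4, the fastest chain of rodent limb muscle, held 5.30% of the chain UMIs in members and 2.54% in the others, and it stood at 1377 CPM in members against 449 CPM, a log2 ratio of 1.62 (1.58 to 1.65). In fast QFM nuclei MYH4 stood at 8.07 CPM. MYH4 ran beside MYH13, which the rule used: MYH13 stood at 15952 CPM in members and 6215 CPM in the others. In endothelial-marker nuclei MYH4 stood at 126 and MYH13 at 1515 CPM, and in fast QFM nuclei MYH13 stood at 9.91 CPM. The MYH4 ratio may thus not be independent of the rule, and whether the rows of MYH4 and MYH13 share reads was not tested. MYH6, a cardiac chain, stood at 6.15 CPM in members and 36.0 CPM in the others (-2.55, interval -2.85 to -2.26); its level in the endothelial-marker nuclei was 5.62 CPM. The row named MYH3 holds nearly all chain UMIs of the fast QFM nuclei. That share follows in part from their choice, which allowed at most 3 MYH7 UMIs. The row named MYH3 may hold reads of the chains not analysed here, so its level is not read as embryonic myosin. In members the UMIs lay mainly in the rows of MYH13, MYH3 and MYH4, with the other 3 chains at or near the level of the endothelial-marker nuclei (MYH15 525 against 444 CPM, MYH7 75.5 against 89.9 CPM). The rule limited MYH15 and MYH7, so their low levels follow from the choice. A MYH15 UMI was held by 85.0% of members and 65.8% of endothelial-marker nuclei, at median depths of 4844 and 2625 UMIs.

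**Figure D2:**
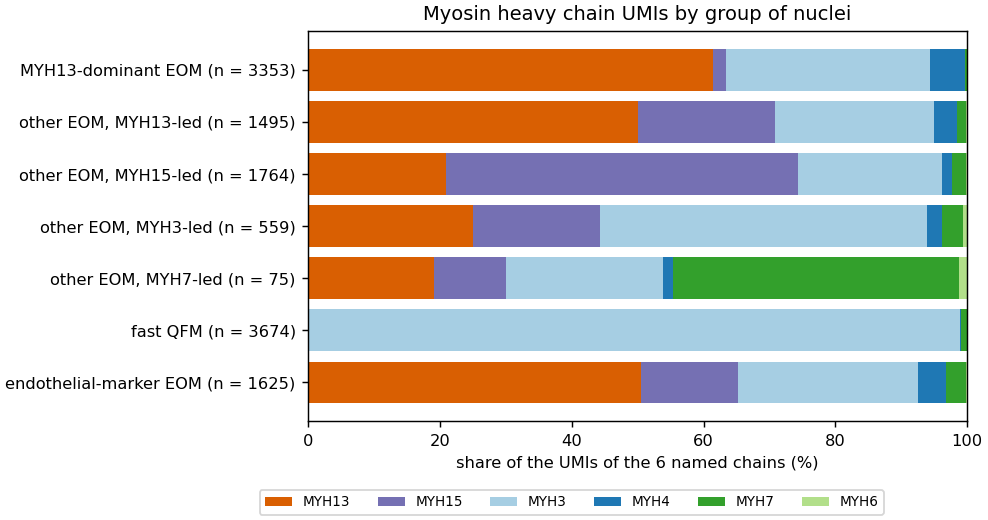
Share of the UMIs of 6 named myosin heavy chain rows (x axis, percent) in 7 groups of nuclei (y axis), members at the top. MYH13 and MYH3 fill 61.4% and 30.9% of the bar of the members, MYH15 is the main colour of the MYH15-led nuclei, and MYH3 fills 98.8% of the bar of the fast QFM nuclei.

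The label of the group was checked against its 2 other markers. ATP2A1 stood at 838 CPM in members, 426 CPM in the other myosin-rich nuclei and 86.0 CPM in the endothelial-marker nuclei, a log2 ratio of members over the others of 0.97 (0.94 to 1.01). PVALB stood at 223 CPM in members, 108 CPM in the others and 44.8 CPM in the endothelial-marker nuclei (1.05, interval 0.98 to 1.12). With each nucleus thinned to 2000 UMIs, ATP2A1 was seen in 76.7% of members, 51.5% of the others and 14.9% of endothelial-marker nuclei, and PVALB in 36.2%, 16.7% and 7.91%. Median depths before thinning were 4844, 4367 and 2625 UMIs, and thinning left out 60, 261 and 462 shallower nuclei. Both markers were higher in members than in each class of the others, split by the chain with most UMIs: ATP2A1 stood at 497 CPM in MYH13-led, 352 CPM in MYH15-led, 429 CPM in MYH3-led and 116 CPM in MYH7-led nuclei. The others thus include 1495 MYH13-led nuclei that missed the rule, with a median of 4097 UMIs (766 to 113512). Together they held 11367022 of the 23654866 UMIs of the others, so their deep barcodes weigh heavily in the summed CPM. Of these 1495 nuclei, 705 held under 30 MYH13 UMIs, and 185 held at least 30 but over 3 MYH7 UMIs. The remaining 605 met both limits but had under 4 times as many MYH13 as MYH15 UMIs. PVALB passed 2-fold by a small margin and missed it when members were limited to no MYH7 UMI (0.79) or to at least 60 MYH13 UMIs (0.86). The first limit moves members with 1 to 3 MYH7 UMIs among the others.

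Of 18272 genes measured against the other myosin-rich nuclei, 560 (3.06%) were at least 2-fold higher in members and 791 (4.33%) at least 2-fold lower, 7.39% in either direction, and the median gene had a log2 ratio of -0.06. Since the members were chosen by counts of these same nuclei, the gene differences are a description. Against single classes the shares higher, lower and in either direction were 3.82%, 5.78% and 9.61% for MYH13-led nuclei, 5.05%, 4.39% and 9.44% for MYH15-led nuclei, and 5.11%, 4.6% and 9.72% for MYH3-led nuclei. Against the 75 MYH7-led nuclei they were 9.11%, 22.9% and 32.0% on 431465 UMIs, far fewer than in the other classes; shares of calls move with counting noise, so those of classes of such unequal size cannot be ranked. Without barcodes called doublets, 1282 genes were lower, and with members limited to no MYH7 UMI, 337 were higher.

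Among genes of the fast sarcomere, 2 of 10 measured were at least 2-fold higher and none lower, with a median log2 ratio of 0.71. MYBPC2, the fast form of myosin-binding protein C, stood at 291 CPM in members and 74.3 CPM in the other myosin-rich nuclei (1.97, interval 1.89 to 2.05). ACTN3, the fast fibre alpha-actinin of the Z-disc, stood at 38.0 and 12.9 CPM (1.56, interval 1.37 to 1.76). TNNT3, the fast troponin T, missed the limit narrowly at 3887 and 1958 CPM (0.99, interval 0.97 to 1.01). The fast troponins I and C differed little: TNNI2 stood at 253 CPM in members and 209 CPM in the others, and TNNC2 at 350.2 and 362 CPM. The fast light chain gene MYL1 stood at 2634 and 2383 CPM (0.14, interval 0.13 to 0.16).

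Genes of the slow sarcomere ran the other way: 7 of 9 measured were at least 2-fold lower in members and none higher, with a median of -1.83. The slow troponin I gene TNNI1 stood at 1.98 CPM in members and 17.5 CPM in the other myosin-rich nuclei (-3.15, interval -3.68 to -2.65). MYOZ2, a calsarcin of slow and cardiac Z-discs, stood at 46.5 and 409 CPM (-3.13, interval -3.24 to -3.03). TNNC1, MYL2, MYL3, CSRP3 and MYL6B had ratios between -1.96 and -1.74. The members' levels of TNNI1, TNNC1, MYL2, MYL3 and MYL6B were below those in endothelial-marker nuclei, MYOZ2 was close to it (44.5 CPM there), and CSRP3 stood above it, at 58.1 against 26.2 CPM. The exceptions were MYBPC1, the slow form of myosin-binding protein C (3344 and 5856 CPM, -0.81), and the alpha-actinin ACTN2 (519 and 654 CPM, -0.33).

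Calcium handling was mixed, with 3 of 20 genes at least 2-fold higher, 3 lower and a median of 0.50. Beside PVALB, the higher genes were ATP2B2, a calcium pump of the plasma membrane (168 CPM in members and 45.6 CPM in the other myosin-rich nuclei, 1.88), and CACNG1, a subunit of the voltage sensor of skeletal muscle (1.87 and 0.719 CPM). The lower genes were CASQ2, ATP2A2 and RYR3. CASQ2, the cardiac calsequestrin that stores calcium, stood at 63.2 and 409 CPM (-2.69, interval -2.78 to -2.61). ATP2A2, the slow and cardiac calcium pump, stood at 83.1 and 189 CPM (-1.19), and RYR3, a calcium release channel, at 49.2 and 157 CPM (-1.67). CASQ2 thus followed the slow sarcomere genes, while the voltage sensor subunit CACNA1S (367 and 331 CPM) and the triad protein TRDN (4884 and 5113 CPM) differed little.

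**Figure D3:**
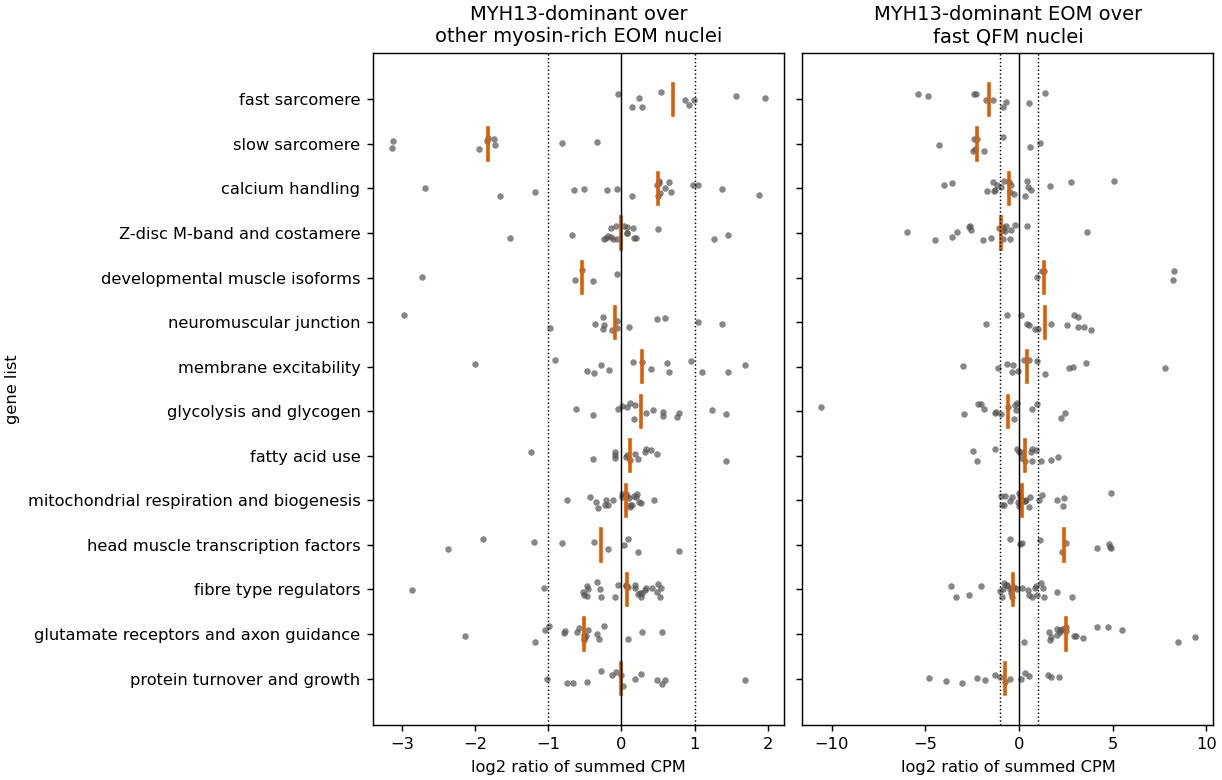
Log2 ratio (x axis) of each measured gene of the 14 gene lists (y axis), members over the other myosin-rich EOM nuclei in the left panel and over fast QFM nuclei in the right panel; the bar marks the median of a list and dotted lines mark 2-fold. The median of the slow sarcomere genes lies left of 0 in both panels (-1.83 and -2.27), while that of the glutamate receptor and axon guidance genes lies left of 0 against other EOM nuclei (-0.51) and right of it against fast QFM nuclei (2.50).

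Of 20 genes of the Z-disc, M-band and costamere, 2 passed 2-fold upwards, 1 downwards and 17 neither way, with a median of -0.01. MYOM3, a myomesin that crosslinks the M-band, stood at 334 CPM in members and 122 CPM in the other myosin-rich nuclei (1.45, interval 1.39 to 1.52), and its relative MYOM1 at 798 and 1273 CPM (-0.67). The 2 myomesin genes thus stood on opposite sides. MYOM2 was also higher, at 26.3 and 10.9 CPM (1.27), and ANKRD1, a stretch-responsive ankyrin repeat protein, was lower, at 3.24 and 9.30 CPM. NEB (nebulin), DMD (dystrophin) and LDB3 differed little, with log2 ratios of 0.04, -0.21 and 0.07.

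Genes of membrane excitability had 3 of 15 at least 2-fold higher, 1 lower and a median of 0.28. KCNQ5, a voltage-gated potassium channel, stood at 348 CPM in members and 108 CPM in the other myosin-rich nuclei (1.69). KCNN3, a calcium-activated potassium channel of small conductance, stood at 205 and 74.7 CPM (1.46), and SCN4A, the sodium channel of skeletal muscle, at 22.5 and 10.4 CPM (1.11, interval 0.87 to 1.34). KCNC1, another potassium channel, was lower, at 4.34 and 17.4 CPM. The large-conductance calcium-activated potassium channel KCNMA1 was abundant in both, at 17529 CPM in members and 11193 CPM in the others (0.65), against 78.7 CPM in fast QFM nuclei.

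Energy metabolism was read from 3 lists. Of 16 genes of glycolysis and glycogen 2 passed 2-fold upwards and none downwards, with a median of 0.26; both, GPD1 (26.0 and 9.68 CPM) and GPD2 (193 and 82.0 CPM), belong to the glycerol phosphate shuttle that carries electrons of glycolysis into mitochondria. GPD2 stood at 147 CPM in the endothelial-marker nuclei. Of 15 fatty acid genes UCP3, a mitochondrial carrier, was higher (7.97 and 2.96 CPM) and LPL, lipoprotein lipase, lower (16.1 and 38.1 CPM), with a median of 0.11. None of 22 mitochondrial genes passed 2-fold, with a median of 0.07; the nuclear receptor ESRRG had the lowest ratio among those named, at 801 and 1339 CPM (-0.74).

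Of 10 transcription factors of head muscle 3 were at least 2-fold lower, none higher, and the median was -0.28. LMX1A, a LIM homeobox factor, stood at 128 CPM in members, 662 CPM in the other myosin-rich nuclei (-2.37, interval -2.44 to -2.31) and 77.6 CPM in the endothelial-marker nuclei. BARX2 stood at 26.6 and 61.0 CPM (-1.20). DACH1 stood at 114 and 425 CPM (-1.89), but at 844 CPM in the endothelial-marker nuclei. ALX4, a homeobox factor, stood at 236 CPM in members and 202 CPM in the others (0.22). PAX3 ran the other way, at 77.4 and 45.0 CPM (0.78, interval 0.67 to 0.90).

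Of 28 regulators of fibre type 2 were at least 2-fold lower and 26 within, with a median of 0.08. PROX1, which favours the slow programme in mouse and zebrafish muscle, stood at 6.59 CPM in members and 48.2 CPM in the other myosin-rich nuclei (-2.87), below the 23.5 CPM of the endothelial-marker nuclei. VGLL3, a TEAD cofactor, stood at 49.1 and 103 CPM (-1.06). The glycolytic fibre factor TBX15 (1949.9 and 1334 CPM) and EYA4 (1852 and 1288 CPM) were within 2-fold.

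Of 14 genes of the neuromuscular junction 2 passed 2-fold upwards and 1 downwards, and the median was -0.10. LRP4, the agrin receptor of the fibre, stood at 97.3 CPM in members and 47.1 CPM in the other myosin-rich nuclei (1.05), and CHRNE, the adult subunit of the acetylcholine receptor, at 3.52 and 1.35 CPM. COL25A1, a transmembrane collagen that motor axons need in mouse, stood at 67.6 and 534 CPM (-2.98); its level was 4174 CPM in the 75 MYH7-led nuclei and 97.0 CPM in the endothelial-marker nuclei. Of 19 glutamate receptor and guidance genes 3 were lower (GRIA3, GRIA4 and GRM7), none higher, with a median of -0.51. GRIA3, an AMPA receptor subunit, stood at 453 and 1031 CPM (-1.19). In protein turnover and growth MSTN (myostatin), which limits muscle mass, was higher (11.5 and 3.55 CPM), MUSTN1 was lower (8.51 and 17.2 CPM) and 13 of 15 genes were within. In the list of developmental isoforms only TNNT2 passed 2-fold, among 5 measured.

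The 12 genes with the largest ratios, of those with at least 100 CPM in the higher group, were CCDC60, SCN2B, SLC24A2, MYBPC2, ATP2B2, CDH20, IFNLR1, CNTFR, TNC, JAML, KCNQ5 and SEC14L5. CCDC60, a coiled-coil protein gene, stood at 329 CPM in members and 67.8 CPM in the other myosin-rich nuclei (4.86-fold), and SCN2B, an auxiliary subunit of voltage-gated sodium channels, at 468 and 96.7 CPM (4.84-fold). SLC24A2, an exchanger that removes calcium in return for sodium with potassium, stood at 284 and 67.3 CPM (2.08). The cadherin CDH20 stood at 199 and 57.2 CPM, the neurotrophic cytokine receptor CNTFR at 405 and 119 CPM, and the matrix protein TNC (tenascin C) at 141 and 41.6 CPM. All 12 were higher in members than in each of the 4 classes led by MYH13, MYH15, MYH3 or MYH7, and all 12 were higher in MYH13-led than in MYH15-led nuclei. The place of members above the classes follows in part from the choice, as the 12 were ranked by their ratio over the same nuclei pooled. For 11 of the 12 the members' level was at least 2-fold above that of the endothelial-marker nuclei, with JAML the exception (116 against 75.1 CPM). CDH20 was at 0.98 when members were limited to at least 60 MYH13 UMIs.

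The 12 with the smallest ratios under the same conditions were HHLA2, PI15, MYOZ2, ST6GALNAC5, RIT2, COL25A1, PPP1R1C, ZNF385B, FAM240B, TNNT2, CASQ2 and DPP10. HHLA2, of the B7 family of immune ligands, stood at 9.89 CPM in members and 129.9 CPM in the other myosin-rich nuclei, 13.1-fold lower in members. PI15, a peptidase inhibitor, stood at 18.1 and 182 CPM (-3.33), and TNNT2 at 80.4 and 534 CPM (-2.73). The zinc finger gene ZNF385B stood at 100.5 and 713 CPM (-2.83). In 11 of the 12 the members were below all 4 classes, with FAM240B the exception (17.1 CPM in members, 9.27 CPM in MYH7-led nuclei). This too follows in part from the choice of the 12 by their ratio. All 12 were within 2-fold of their level in the endothelial-marker nuclei and 5 were at or below it. After thinning, HHLA2 was seen in 2.00% of members, 21.6% of the others and 1.03% of endothelial-marker nuclei, and for 11 of the 12 the interval of the share in members overlapped that of the endothelial-marker nuclei. The highest level lay in MYH7-led nuclei for 8 of the 12 and in MYH15-led nuclei for 4.

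**Figure D4:**
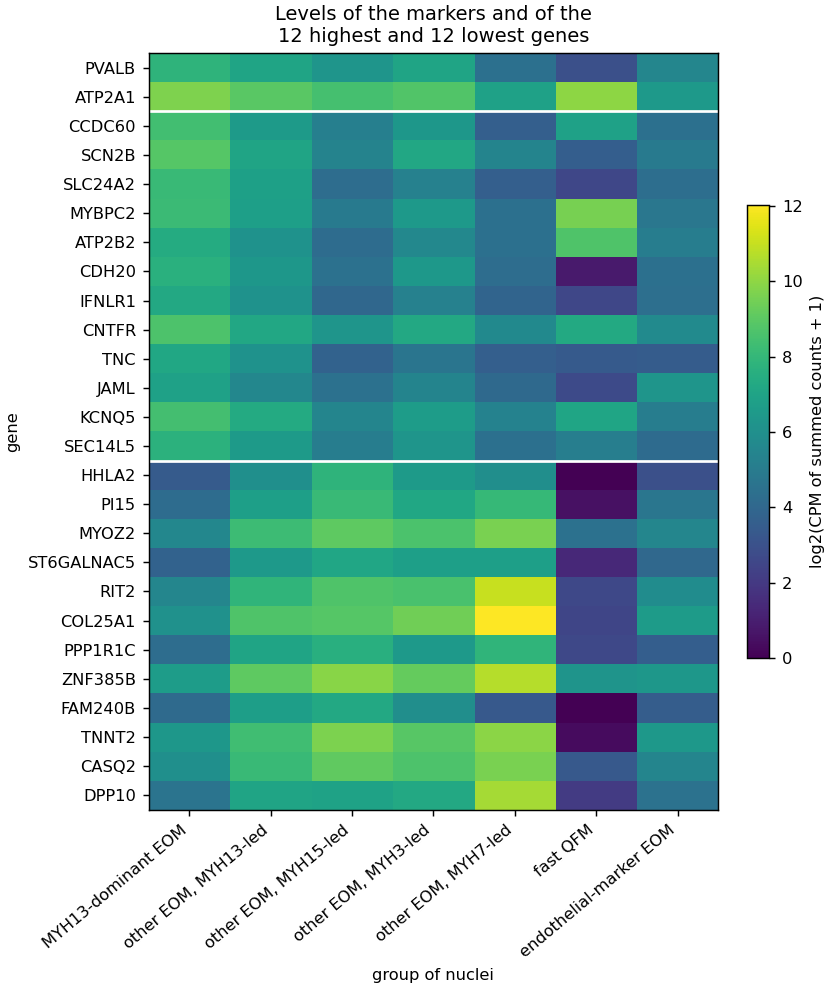
Heat map of log2(CPM + 1) for PVALB, ATP2A1, and the 12 highest and 12 lowest genes by ratio (rows) in 7 groups of nuclei (columns), members first. In members the 12 highest genes are above all 4 other EOM classes, and the 12 lowest lie within 2-fold of the endothelial-marker nuclei.

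Nuclei with at most 3 MYH7 UMIs and at least 30 UMIs of MYH13 plus MYH15 were then binned. The 7 bins were cut on the MYH13 share of the MYH13 plus MYH15 UMIs. The bins held 424, 555, 690, 571, 245, 420 and 2754 nuclei, from 0 to 20% up to 95 to 100%. The 4 bins under 80% held no member, and the bins above held 203, 404 and 2746. Nuclei were thus found at every share, and 2754 of them lay in the top bin. The bins were not repeated without called doublets. In endothelial-marker nuclei MYH13 stood at 1515 CPM and MYH15 at 444 CPM. The part of mixed barcodes and of free RNA in the shares between was not tested.

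Across the bins, low to high, SCN2B stood at 45.3, 43.4, 48.0, 167, 203, 380.2 and 505 CPM. MYBPC2 stood at 34.9, 28.0, 42.3, 109, 156, 218 and 314 CPM. PVALB stood at 102, 77.6, 90.6, 130.1, 172, 208 and 229.6 CPM. Each stood higher in every bin above a share of 60% than in the 3 bins below it. Genes that were lower in members ran the other way over the upper bins. TNNT2 stood at 499, 577, 526, 321, 209, 103 and 65.3 CPM, and LMX1A at 881, 919.6, 864, 556, 350.01, 181 and 99.1 CPM. NRXN3, a presynaptic adhesion gene, stood at 3820.2, 5264, 5638, 3705, 1939.97, 1181 and 594 CPM. These 3 genes had their highest level at 20 to 60% and their lowest in the bin richest in members. PI15 and GRIA3 were lower in each successive bin, PI15 with 228 CPM at 0 to 20% and 13.4 CPM at 95 to 100%, and GRIA3 with 1499 and 418 CPM. RIT2 and COL25A1 followed neither shape: RIT2 stood at 128, 88.1, 48.5, 103, 68.8, 62.1 and 39.9 CPM, and COL25A1 was highest at 60 to 80%, with 195 CPM. The bins use the chains of the rule and are a description. Most of these genes were named by their ratio between members and the others, and the upper bins hold mostly members. A change over the upper bins thus follows in part from the choice.

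**Figure D5:**
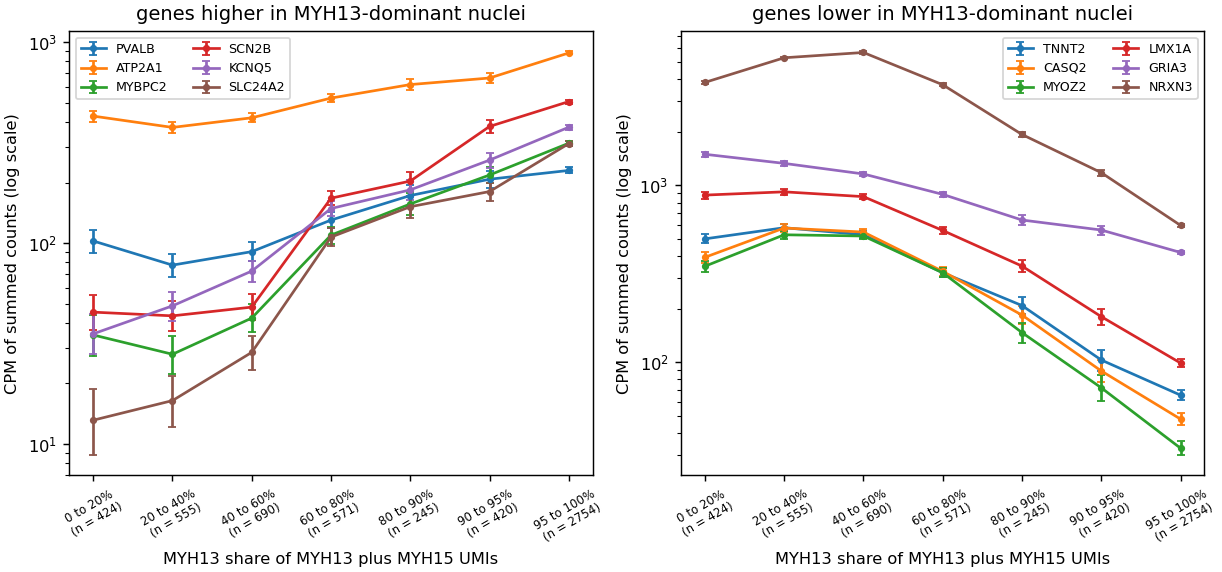
Levels in CPM (y axis, log scale) of 6 higher and 6 lower genes across 7 bins of the MYH13 share of MYH13 plus MYH15 UMIs (x axis, percent); error bars are exact Poisson 95% intervals. SCN2B is at 45.3 CPM in the lowest bin and 505 CPM in the highest, and TNNT2 at 499 and 65.3 CPM.

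The comparison with fast QFM nuclei asks how the fast nuclei of eye and thigh differ. Of 17661 genes measured, 4362 (24.7%) were at least 2-fold higher in members and 1926 (10.9%) lower, 35.6% in either direction. The median gene had a log2 ratio of 0.21, and relative to it 3653 genes were higher and 2555 lower, a share of higher calls of 58.8% in place of 69.4%. Scaled so, the lists kept the side of their median except the mitochondrial one given below, and the counts higher and lower were 1 and 7 in the fast sarcomere, 0 and 7 in the slow, 3 and 9 in calcium handling, 1 and 13 in the Z-disc list, 2 and 8 in glycolysis, 7 and 1 at the junction, 6 and 0 of the head factors and 4 and 8 of the regulators. Muscle, library and the kind of preparation cannot be told apart here.

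Fast nuclei of the thigh had more of most genes of the fast sarcomere. Of 10 genes 6 were at least 2-fold lower in members and 1 higher, with a median of -1.59. ACTN3 stood at 38.0 CPM in members and 1572 CPM in fast QFM nuclei (41.4-fold lower in members), TNNC2 at 350.2 and 1876 CPM, and MYBPC2 at 291 and 765 CPM (-1.39). The higher gene was MYLK4, a myosin light chain kinase gene, at 2571 and 997 CPM. ATP2A1 differed little, at 838 and 1020.0 CPM (-0.28), while PVALB stood at 223 and 6.62 CPM (33.6-fold higher in members). MYBPC2, ATP2B2 and ACTN3 were thus higher in members than in other EOM nuclei and lower than in fast QFM nuclei.

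Slow sarcomere genes were 6 lower and 1 higher of 9, with a median of -2.27. MYBPC1, for example, stood at 3344 CPM in members and 12023 CPM in fast QFM nuclei. Slow fibre markers summed to 446 CPM in fast QFM nuclei and 207 CPM in members. At least 3 UMIs of them were held by 37.7% and 12.4% of nuclei. MYH7 was the only slow gene limited in the choice of fast QFM nuclei, and free RNA was not gauged in the QFM library. In the Z-disc, M-band and costamere list 10 of 20 were lower and 1 higher, with a median of -0.97. MYOM2 stood at 26.3 and 1668 CPM (-5.99) and MYOM3 at 334 and 26.8 CPM (3.64), so these 2 myomesin genes lay on opposite sides. In calcium handling 7 of 20 were lower and 3 higher, with a median of -0.51; the lower ones include the junctophilins JPH1 and JPH2, which hold the triad together. In glycolysis and glycogen 7 of 17 were lower and 2 higher, with a median of -0.58. PFKFB1, an enzyme that sets the level of a glycolytic activator, stood at 0.549 CPM in members (10 counts) and 834 CPM in fast QFM nuclei. LDHB, the lactate dehydrogenase of oxidative tissue, was higher, at 100.1 and 18.2 CPM (2.46).

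Of 22 mitochondrial genes 6 were higher in members and none lower, a share near the 24.7% over all genes, among them the coactivator PPARGC1A (1028 CPM in members and 192 CPM in fast QFM nuclei, 2.42) and ESRRG (801 and 26.7 CPM, 4.91); the median was 0.17. Relative to the median gene this list had 5 higher and 3 lower and a median of -0.04. Of 15 fatty acid genes 3 were higher and 3 lower, and of 14 excitability genes 5 were higher and 2 lower. Over all genes 24.7% were higher and 10.9% lower. Of 14 junction genes 8 were higher and 1 lower, with a median of 1.37; COLQ, the collagen tail of acetylcholinesterase, stood at 392 and 44.9 CPM and MUSK, the agrin-activated kinase, at 174 and 19.4 CPM. Of 5 developmental isoforms 4 were higher, with TNNT2 at 80.4 and 0.270 CPM and the cardiac actin ACTC1 at 618 and 1.98 CPM. TNNT2 in members was at the level of the endothelial-marker nuclei (84.5 CPM), while ACTC1 was above it (197 CPM).

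Of 10 head muscle factors 7 were higher in members and none lower, with a median of 2.39. ALX4 stood at 236 CPM in members and 8.38 CPM in fast QFM nuclei (4.82) and PAX3 at 77.4 and 4.37 CPM (4.15). Of 19 glutamate receptor and guidance genes 18 were higher and none lower, with a median of 2.50. ROBO2, a Slit receptor, stood at 4051 and 11.4 CPM (8.48), and GRIA3 at 453 and 0.676 CPM (9.39). Of 28 fibre type regulators 5 were higher and 5 lower, beside 24.7% higher and 10.9% lower over all genes. TBX15 was among the higher (1949.9 and 797 CPM), and THRB, a thyroid hormone receptor, among the lower (79.1 and 808 CPM). In protein turnover 3 of 15 were higher and 7 lower: the ubiquitin ligases FBXO32 (716 and 165 CPM) and TRIM63 (63.1 and 298 CPM) stood on opposite sides.

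The largest ratios over fast QFM nuclei included those of PCLO, XKR4, GRIA3, ROBO2, SLC35F4, ACTC1 and CDH20. PCLO (piccolo, a scaffold of presynaptic zones) stood at 208 CPM in members and 0.270 CPM in fast QFM nuclei, and XKR4 at 1109.9 and 1.49 CPM. Among the other myosin-rich EOM nuclei PCLO stood at 161 CPM and XKR4 at 1732 CPM, both also above fast QFM nuclei. CDH20 and SLC35F4 were higher in members than in either comparison group. The 8 smallest ratios were those of PFKFB1, SLC36A2, MYOM2, SMYD2, C1orf21, TPRG1, ADPRHL1 and ACTN3. SLC36A2, an amino acid transporter, stood at 0.439 and 279 CPM, and C1orf21 at 35 and 1853 CPM. HHLA2 and FAM240B had no count in fast QFM nuclei, which gives ratios of at least 73.1-fold and 127-fold higher in members at a floor of 3 counts over the group. In members both genes were within 2-fold of their level in the endothelial-marker nuclei. The part of free RNA of the EOM library in these ratios was not tested.

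Members were not uniform. With each member thinned to 2000 UMIs, the Fano factor (variance over mean, near 1 for pure counting) was ranked over 1934 genes, with a median of 1.12. NALF1, a subunit gene of the sodium leak channel complex, had the highest value (23.7), followed by CDH20 (10.1), the potassium channel partner KCNIP4 (9.46) and NRXN3 (8.69), with DLGAP1, ROBO2, ADGRV1, KCNMA1 and 2 unnamed genes filling the 10 highest. PVALB, at 1.04, was below the median, and ATP2A1 had 1.37. NALF1 had 7487 UMIs in members; 119 members (3.55%) with at least 10 UMIs each held 81.0% of them. Endothelial-marker nuclei had 1440.1 CPM of NALF1, against 411 CPM in members and 274 CPM in the other myosin-rich nuclei.

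NALF1 and CDH20 were then read beside the acetylcholine receptor genes CHRND and CHRNE, whose RNA marks nuclei beneath the nerve terminal. A UMI of either was held by 164 members (4.89%), which had a median of 5943 UMIs, against 4784 in the other 3189. NALF1 stood at 4318 CPM in the 164 members and 153 CPM in the rest (log2 ratio 4.82), CDH20 at 1719.9 and 98.8 CPM (4.12), and ADGRV1, an adhesion receptor, at 1319 and 68.8 CPM (4.26). Some junction genes that took no part in the choice were higher too: MUSK stood at 996 and 119 CPM (3.06), CHRNA1 at 96.7 and 10.4 CPM (3.22) and LRP4 at 341 and 81.2 CPM (2.07). ACHE stood at 22.2 and 9.31 CPM (1.25), and COLQ stayed under 2-fold, at 668 and 374 CPM (0.84). CHRNB1 (66.5 and 76.4 CPM), DOK7 (111 and 98.8 CPM) and RAPSN (11.5 and 11.4 CPM) differed little. The fast markers were somewhat lower in the 164, with PVALB at 164 and 226.6 CPM and MYBPC2 at 183 and 298 CPM. Since NALF1 is also abundant in endothelial-marker nuclei, the part of other cells in its level was not tested.

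The same split of the other myosin-rich nuclei gave 189 nuclei (4.85%) with a UMI of either gene. Their median depth was 5888 UMIs, against 4323 in the other 3707. In the 189 nuclei NALF1 stood at 832 CPM against 214 CPM in the rest (1.96), CDH20 at 134 and 49.0 CPM (1.45) and MUSK at 280.2 and 149.6 CPM (0.91). The ratios between nuclei with and without a receptor UMI were thus larger among members for all 3 genes. Deep barcodes weigh most in such sums, and the other myosin-rich nuclei reach 113512 UMIs. The part of depth and of mixed barcodes in these ratios was not tested. With the nuclei holding a receptor UMI left out of both sets, CDH20 stood at 98.8 CPM in members and 49.0 CPM in the others (1.01, interval 0.90 to 1.12, in place of 1.80). LRP4 stood at 81.2 and 43.8 CPM (0.89, in place of 1.05). SCN2B (2.29), CCDC60 (2.30), MYBPC2 (2.04), SLC24A2 (2.02) and PVALB (1.08) were within 0.1 of their ratios over all nuclei.

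The balance of the rows named MYH3 and MYH13 also varied among members. The MYH3 share of MYH3 plus MYH13 UMIs had a median of 33.3% (2.86 to 68.6%), with 4 members under 5%, 274 at 5 to 20%, 2882 at 20 to 50% and 193 at 50% and over. In the 3 larger bins, low to high, CDH20 stood at 697, 154 and 120.3 CPM, NALF1 at 1757, 278 and 411 CPM, and CHRND at 53.2, 8.98 and 21.9 CPM. Members with a CHRND or CHRNE UMI made up 13.9% (10 to 18.5) of the bin at 5 to 20%, 3.99% (3.31 to 4.77) of that at 20 to 50% and 5.18% (2.51 to 9.32) of that at 50% and over. The bins' median depths were 4561.5, 4905 and 4347 UMIs. SCN2B ran the other way, at 257, 483 and 563 CPM, as did CCDC60, at 176, 342 and 359.8 CPM. PVALB (194, 226 and 214 CPM) and ATP2A1 (776, 846 and 798 CPM) differed little.

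By MYH4 share of the 6 chains, 400 members had none, 1490 were under 5%, 987 at 5 to 10% and 476 at 10% and over. SLC24A2 stood at 93.2, 239.5, 350.4 and 418 CPM in these bins, and CDH20 at 92.1, 137, 284 and 292 CPM. NRXN3 ran down, at 946, 882, 668 and 526 CPM, as did KCNIP4, at 1121, 1104, 899.8 and 675 CPM. ATP2A1 stayed between 824 and 855 CPM and PVALB between 215 and 253 CPM. Median depth was 4095 UMIs in the bin with no MYH4 UMI and 4916.5 to 5078 in the other 3.

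Markers of other cell types were present at low levels. Endothelial markers summed to 348 CPM in members, 540.0 CPM in the other myosin-rich nuclei and 328 CPM in fast QFM nuclei, with 7298 CPM in endothelial-marker nuclei. Fibroblast markers summed to 389, 520.4 and 379 CPM, macrophage markers to 113, 162 and 95 CPM and neuron markers to 53.2, 86.2 and 17.8 CPM. The classes of the others differed: endothelial markers summed to 738 CPM in MYH13-led, 348 in MYH15-led, 378 in MYH3-led and 403 CPM in MYH7-led nuclei. Fibroblast markers summed to 673, 366, 407 and 484 CPM in these classes. At least 3 endothelial marker UMIs were held by 31.7% of MYH13-led nuclei and 13.2% of members. All genes of these lists had counts in members. The Schwann list summed to 1141, 1769.7 and 11.3 CPM, nearly all of it XKR4, while CDH19 stood at 8.62 CPM in members. Satellite cell markers summed to 114, 104 and 29.4 CPM and mural markers to 389, 375 and 767 CPM, the second mostly ABCC9. T and NK cell markers summed to 32.6, 43 and 16 CPM. Of the 3 adipocyte genes CIDEC was at 0 in members, and the list summed to 5.55 CPM. Called doublets were 16.4% of members, 21.7% of the other myosin-rich nuclei and 8.66% of the fast QFM nuclei, and the part of mixed barcodes in the gene differences was not tested beyond the counts without them.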

How the data were processed

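Per the file headers and the submitters' processing notes, reads of 3 droplet libraries (poly-T capture beads, NovaSeq sequencing per the labels' protocols) were turned into UMI counts with Cell Ranger 7.2.0, and Seurat 5.2.1 is also named. The deposited values are raw counts per gene and barcode, with no normalization. Build, annotation and the treatment of introns: not given in the sources used here. Deposited barcodes held at least 500 UMIs and were used whole.

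Counts were summed over each set of nuclei and scaled to CPM. Ratios carry conditional exact binomial intervals, levels exact Poisson intervals and shares Clopper-Pearson intervals, all at 95% and for counting error only; a count of 0 was taken as 3 counts. Of 38550 features, 22005 carry a symbol, and 224 of the 274 genes in 14 pathway lists matched. Named genes were the 6 chains, the markers, the 12 highest and 12 lowest ratios over other EOM nuclei and the 8 highest and 8 lowest over fast QFM nuclei (at least 100 CPM in the higher sum, with a symbol, without chains, mitochondrial and ribosomal genes), up to 4 genes of largest ratio per list (at least 20 CPM), further list members where a role is described, and the 10 genes of largest Fano factor. Members and lists were chosen with earlier results of these data known. Doublets were called with Scrublet in scanpy 1.11.5 and kept, except in an alternative. Thinning used seed 1. The ratio was checked on simulated counts. Python 3.11.15, numpy 2.4.6, scipy 1.17.1, pandas 2.3.3 and matplotlib 3.10.9 were used. Alternatives changed the limits of the rule, the count minimum, the scaling, and the barcodes kept (doublets, barcodes with other cells' markers). A few named genes are not reported here.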

Additional observations from a re-analysis of the deposited data

How the results depend on the processing

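No paired analysis was possible because each group comes from 1 library and no test was made. Against the other myosin-rich nuclei, 560 genes higher and 791 lower became 3095 and 2748 with at least 1 count and 271 and 409 with at least 100 counts, as the number of genes measured sets both. With members limited to no MYH7 UMI 337 were higher, and without called doublets 1282 were lower, the cause of which was not tested. The same doublet filter gave 2072 genes lower against the MYH13-led class, in place of 998. Against fast QFM nuclei, 4362 higher and 1926 lower became 7591 and 4124 with at least 1 count, and 2584 were higher with at least 100 counts. Limits of at least 60 MYH13 UMIs or no MYH7 UMI, and the removal of doublets, gave shares of higher calls of 30.8%, 27.8% and 33.5% against the other nuclei, in place of 41.5%, scaling by the median ratio 48.4% (664 higher, 707 lower), and at least 1 count 53.0%. SMYD2 had 0.15 in place of -1.13 without barcodes holding other markers, and SLC36A2 had 0.85 in place of -1.21 without MYH13-led nuclei among the others, an alternative chosen after seeing the data, as were the splits by CHRND and CHRNE; both genes had low counts in EOM nuclei. Of the named genes at least 2-fold apart, 41 of 55 stayed so under every alternative against the other nuclei and 69 of 76 against fast QFM nuclei; with no MYH7 UMI the calls of LRP4 (0.79), GPD2 (0.87), LPL (-0.93), BARX2 (-0.86), VGLL3 (-0.94), SCN4A (0.94), KCNN3 (0.99), MYOM2 (0.98), MYOM3 (0.97) and SLC35F4 (0.94) ended against the other nuclei. Against fast QFM nuclei, scaling by the median ratio ended the calls of DACH1 (0.91) and MYOZ2 (0.92). The filter on other cells' markers removed 76.9% of members, mostly through XKR4 and ABCC9; without these genes in it, it removed 29.3%.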
